A study of Mus musculus with 4 samples.

Results

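Condensins are ring-shaped protein complexes that fold chromosomes, and their 8 subunit genes in the mouse, Smc2, Smc4, Ncapd2, Ncapg, Ncaph, Ncapd3, Ncapg2 and Ncaph2, were followed through induced erythroid-like differentiation of MEL cells. MEL cells are a mouse erythroleukemia line of erythroid precursors that can be driven by dimethyl sulfoxide (DMSO) to make haemoglobin and to take on features of later red cell precursors. The members were taken by gene symbol, as subunits of condensin I and condensin II, and each of the 8 was found among the 47935 rows of the deposited table. For 7 of them the row carried that symbol alone, while the Ncapd2 row was shared with a small RNA gene, Scarna10. RNA was sequenced from 4 samples, 2 of DMSO-induced MEL cells (1.5% DMSO in the medium) and 2 of uninduced MEL cells kept in the same medium without it; the length of exposure is not given in the sources used here. Both groups are the same leukemic line, which is no normal erythroblast. The labels do not say whether the 2 samples of a group came from separate cultures, and a p-value here compares the groups with a sample-to-sample spread that could be technical.

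Condensin I and condensin II share a pair of ATPase proteins, SMC2 and SMC4, which form the arms of the ring. Each complex adds its own kleisin, which closes the ring (NCAPH in condensin I, NCAPH2 in condensin II), and its own pair of HEAT-repeat proteins, which bind DNA (NCAPD2 and NCAPG in condensin I, NCAPD3 and NCAPG2 in condensin II). Condensin I lies in the cytoplasm through interphase and reaches the chromosomes once the nuclear envelope breaks down, whereas condensin II is nuclear throughout the cell cycle and starts chromosome condensation in prophase. Erythroblasts condense their nuclei strongly before they expel them, and condensin II has been linked to that condensation.

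The genes lie on 8 different chromosomes (GRCm38, GENCODE M21). Smc2 is at chr4:52439243-52488260, Smc4 at chr3:69004738-69034623, Ncapg at chr5:45669919-45700546, Ncapd3 at chr9:27030175-27095315, Ncapg2 at chr12:116405402-116463731 and Ncaph2 at chr15:89355719-89372826, all on the plus strand. Ncapd2 at chr6:125168007-125191701 and Ncaph at chr2:127103809-127133954 are on the minus strand. Scarna10, a small Cajal body RNA gene of 325 bases, lies inside Ncapd2 on the same strand at chr6:125186359-125186683.

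The stretch before the transcription start was searched for motifs of cell cycle promoters, since genes of mitosis often carry a CHR element (cell cycle genes homology region) bound by the DREAM and MYB-MuvB complexes. In RefSeq's promoter windows (GRCm38.p6, 250 bases before to 50 after a start), 8 windows matched 7 of the 8 members, Ncapd3 having 2 and Smc4 being absent from the table. The letters TTTGAA or TTCGAA, searched on both strands, occurred in 6 of the 8 windows and in 19.2% of all 32851 windows. They were found for Smc2, Ncapd2, Ncapg, Ncapg2 and Ncaph2 and, only in the second of its windows, for Ncapd3, and not in the Ncaph window. E2F-type letters (TTTGGCGC, TTTCGCGC or TTTCCCGC) occurred for Ncapd2, Ncapg and Ncapg2, in 3 of 8 windows against 1.84% of all. CCAAT occurred for Smc2, Ncapd2 and Ncapg, in 3 of 8 windows against 37.4% of all. The GATA letters AGATAA or TGATAA, the kind that the erythroid factor GATA1 binds, occurred in 0 of 8 windows against 18.6% of all. All motifs were searched on both strands, no match overlapped a match of another motif, and a match is only a match of letters. The 150 bases before the start, from 5′ to 3′ on the plus strand, are shown for Ncapg and for the 3 genes of condensin II, with the CHR letters in capitals; the first capital lies 30 bases upstream in Ncapg, 18 in Ncapg2 and 22 in Ncaph2, and the Ncapd3 stretch, which belongs to its first window, holds none. These stretches are chr5:45669775-45669924 for Ncapg, chr12:116405286-116405435 for Ncapg2, chr15:89355569-89355718 for Ncaph2 and chr9:27030015-27030164 for Ncapd3. The starts used here are RefSeq's and can differ from the GENCODE gene starts given above. For Ncapg2 the RefSeq start is base 116405436, so its CHR letters lie inside the gene as GENCODE places it.
Ncapg: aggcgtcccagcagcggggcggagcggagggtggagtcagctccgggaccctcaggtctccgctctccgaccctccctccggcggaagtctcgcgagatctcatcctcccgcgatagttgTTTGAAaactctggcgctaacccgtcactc
Ncapg2: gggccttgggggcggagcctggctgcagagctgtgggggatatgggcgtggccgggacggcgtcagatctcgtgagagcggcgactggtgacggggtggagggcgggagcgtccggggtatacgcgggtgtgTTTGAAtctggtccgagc
Ncaph2: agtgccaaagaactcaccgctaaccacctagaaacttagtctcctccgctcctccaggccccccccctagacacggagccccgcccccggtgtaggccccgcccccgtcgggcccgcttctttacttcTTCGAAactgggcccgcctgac
Ncapd3: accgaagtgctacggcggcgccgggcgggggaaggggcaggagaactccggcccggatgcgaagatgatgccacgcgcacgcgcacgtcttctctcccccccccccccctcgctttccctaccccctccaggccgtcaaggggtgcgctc

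Expression is given in FPKM (fragments scaled to transcript length and to library total), as deposited. Levels are thus per length. Differences between samples also moved with transcript GC content, as given below, so levels of different genes can be compared only roughly. Read depth is not given in the sources used here, so no counting interval can be given. Per sample, 12151 and 12519 rows reached 1 FPKM in DMSO-induced cells, and 12257 and 12645 did in uninduced cells. The erythroid marker genes separated the groups as labelled: the band 3 gene Slc4a1 had 82.8 and 186 FPKM in the DMSO-induced samples, against 0.49 and 0.56 FPKM in the uninduced samples. The alpha-globin gene Hba-a1 had 40301 and 67689 FPKM in DMSO-induced cells, against 656 and 917 FPKM in uninduced cells. The adult beta-globin gene Hbb-bs had 15800 and 39767 FPKM in DMSO-induced cells, against 95.2 and 130 FPKM in uninduced cells. Gata1, the main erythroid transcription factor gene, had 346 and 473 FPKM in DMSO-induced cells, against 247 and 290 FPKM in uninduced cells. Summed FPKM of the myeloid markers was 2.18 and 1.34 in DMSO-induced cells and 7.76 and 5.31 in uninduced cells, and lymphoid and fibroblast markers stayed below 1 FPKM in sum in all 4 samples. The 3 megakaryocyte markers with a row of their own reached 1 FPKM in all 4 samples and summed to 114 and 146 FPKM in DMSO-induced cells, against 202 and 333 FPKM in uninduced cells, mostly from Pf4; the part of these cells in the results was not tested.

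None of the condensin genes passed the test in either direction. The test was limma's moderated test on log2(FPKM + 1) over the 12890 loci that reached 1 FPKM in 2 or more samples, with Benjamini-Hochberg adjustment over all of them; all 8 member rows were among them. It called 0 of the 8 rows at an adjusted p under 0.05, against 26.2% of all loci tested (11.5% higher and 14.7% lower in DMSO-induced cells). At an unadjusted p under 0.05 there were 3 member rows, Ncapd3, Ncaph2 and the shared Ncapd2 row, against 43.1% of all loci. The mean of all 7 subunits with their own row was nonetheless higher in DMSO-induced cells, as for 51.2% of all loci; their median log2 change was 0.51, against 0.03 over all loci tested. For 3 of the 7 both DMSO-induced samples lay above both uninduced samples, against 36.1% of all loci, and for 0 of the 7 they lay below both, against 34.7% of all loci. Summed over the 7 subunits, the level was 282 and 214 FPKM in DMSO-induced cells, against 199 and 142 FPKM in uninduced cells. These sums did not overlap between the groups. Ncaph2 alone gave 93.9 and 101 FPKM of them in DMSO-induced cells, against 59.9 and 69.6 FPKM in uninduced cells. With Ncaph2 left out, the sums of the groups overlapped. From bulk RNA, a change in the share of cells that carry a transcript and a change in its amount per cell cannot be told apart.

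**Figure D1:**
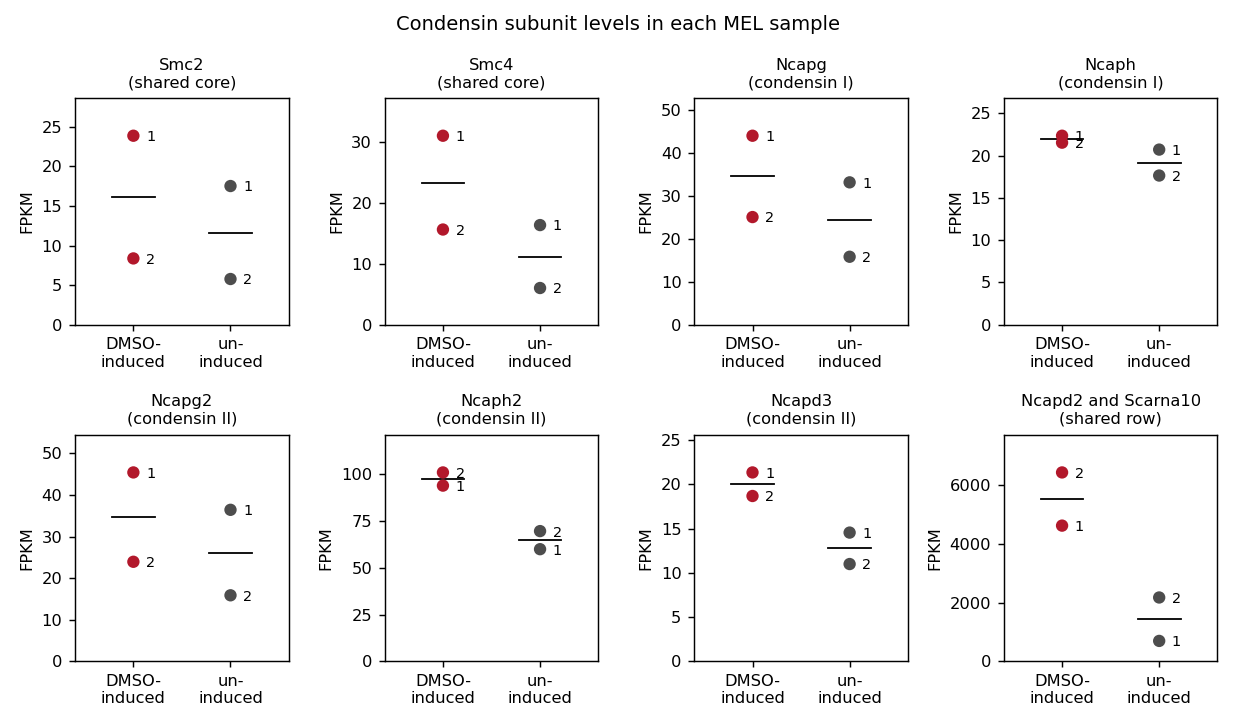
FPKM of each condensin subunit (linear axis from 0, a scale of its own in each panel) in the DMSO-induced and uninduced MEL samples; a point is 1 sample, marked with its replicate number, and the bar is the mean of the 2 samples of a group. Ncaph, Ncapd3, Ncaph2 and the shared Ncapd2 row have both DMSO-induced points above both uninduced points, while the points of Smc2, Smc4, Ncapg and Ncapg2 overlap between groups.

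Of the shared core, Smc2, the ATPase common to both complexes, had 23.9 and 8.37 FPKM in the DMSO-induced samples, against 17.5 and 5.77 FPKM in the uninduced samples. Its samples differed more within a group than between the groups. The log2 change was 0.45 ± 0.66 (SE, n = 2 per group) with a 95% interval of -1.25 to 2.14 and an adjusted p of 0.635 in limma. Leaving out DMSO-induced replicate 1 turned it to -0.26, and leaving out uninduced replicate 2 turned it to -0.28.

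Smc4, the partner ATPase of SMC2, had 31.1 and 15.6 FPKM in the DMSO-induced samples, against 16.4 and 6.03 FPKM in the uninduced samples. The lower DMSO-induced sample stood just below the higher uninduced one, so the groups overlapped narrowly. Its mean of 23.3 ± 10.9 FPKM in DMSO-induced cells was 2.08-fold that of 11.2 ± 7.31 FPKM in uninduced cells (SD, n = 2 each). The added 1 in log2(FPKM + 1) makes changes of low genes look smaller; on that scale the change was 1.06 ± 0.54 with a 95% interval of -0.31 to 2.44, and limma's adjusted p was 0.193. With the replicate number as a block the adjusted p was 0.0264, and without uninduced replicate 1, with the expression filter applied again, it was 0.0361. The change was 0.41 without uninduced replicate 2 (adjusted p of 0.586, limma), 0.59 without DMSO-induced replicate 1 (adjusted p of 0.558) and 1.72 without uninduced replicate 1 (adjusted p of 0.109 with the tested loci kept).

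Within condensin I, the row of Ncapd2, a HEAT-repeat subunit, cannot be read as that gene's level. It held 4619 and 6428 FPKM in DMSO-induced cells and 697 and 2174 FPKM in uninduced cells, which was 115 and 210 times the mean of the other 7 subunits in the DMSO-induced samples and 24.6 and 107 times in the uninduced samples. What part of it came from the Scarna10 transcript of 325 bases was not tested. Both DMSO-induced samples lay above both uninduced samples, with a log2 change of 2.14 ± 0.61 (95% interval 0.59 to 3.69) and an adjusted p of 0.0568 in limma. The row passed the threshold under quantile normalization, under scaling to sums that leave out globins and the top loci, with the replicate block (adjusted p of 0.0233), and without uninduced replicate 2 once the filter was applied again (adjusted p of 0.0165). Its change was 1.32 without uninduced replicate 1, with an adjusted p of 0.162 in limma, and 2.96 without uninduced replicate 2.

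Ncapg, the other HEAT-repeat subunit of condensin I, had 43.9 and 25.0 FPKM in DMSO-induced cells, against 33.1 and 15.8 FPKM in uninduced cells. The samples of the groups interleaved, and the log2 change was 0.51 ± 0.44 with a 95% interval of -0.62 to 1.65 (adjusted p of 0.413, limma). Its change was 0.12 without DMSO-induced replicate 1 and 0.0043 without uninduced replicate 2. Ncaph, the kleisin of condensin I, was the steadiest subunit across samples, with 22.4 and 21.5 FPKM in DMSO-induced cells, against 20.7 and 17.7 FPKM in uninduced cells. Its log2 change of 0.19 ± 0.19 had a 95% interval of -0.31 to 0.69, or 0.81-fold to 1.61-fold, and limma's adjusted p was 0.490.

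Within condensin II, Ncapd3, a HEAT-repeat subunit, had 21.3 and 18.7 FPKM in DMSO-induced cells, against 14.5 and 11.0 FPKM in uninduced cells. The groups did not overlap, and the mean was 1.57-fold that in uninduced cells. The log2 change was 0.62 ± 0.23 with a 95% interval of 0.04 to 1.20 and an adjusted p of 0.10 in limma. Ncaph2, the kleisin of condensin II, had 93.9 and 101 FPKM in DMSO-induced cells, against 59.9 and 69.6 FPKM in uninduced cells. The groups were again separate, at 97.4 ± 4.98 FPKM in DMSO-induced cells and 64.8 ± 6.83 FPKM in uninduced cells (SD, n = 2 each). The log2 change was 0.58 ± 0.19 with a 95% interval of 0.09 to 1.08, and limma's adjusted p was 0.0797. That adjusted p was 0.0342 under quantile normalization and 0.107 under median-of-ratios scaling. It was 0.0640 under scaling to sums that leave out globins and the top loci, and 0.245 without a filter.

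Ncapg2, the other HEAT-repeat subunit of condensin II, had 45.4 and 23.9 FPKM in DMSO-induced cells, against 36.4 and 15.9 FPKM in uninduced cells. As with Ncapg and Smc2, its samples interleaved. The log2 change was 0.44 ± 0.49 with a 95% interval of -0.82 to 1.69 (adjusted p of 0.528, limma). It turned to -0.011 without DMSO-induced replicate 1 and to -0.14 without uninduced replicate 2.

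**Figure D2:**
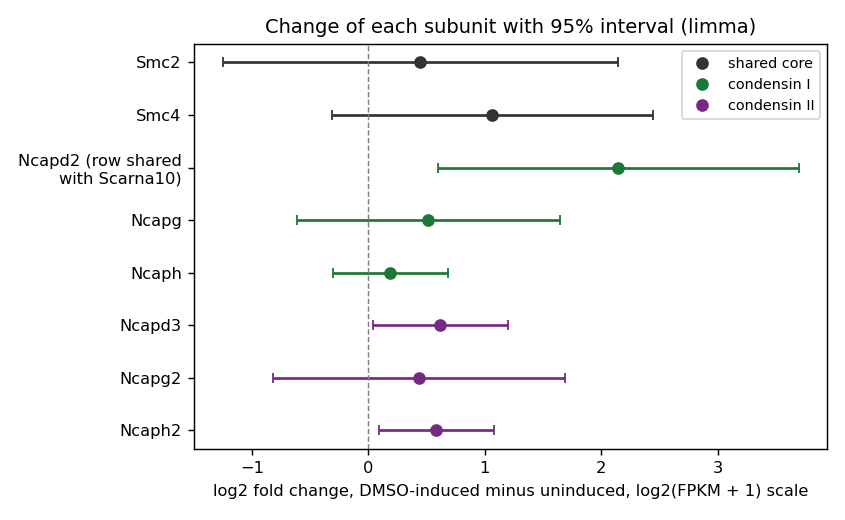
Log2 change of each condensin row, DMSO-induced minus uninduced, on the log2(FPKM + 1) scale; points are limma estimates and lines are 95% intervals. Among the rows that hold 1 gene, the intervals of Ncapd3 (0.04 to 1.20) and Ncaph2 (0.09 to 1.08) lie above 0 and those of the other 5 include 0; the shared Ncapd2 row is at 2.14.

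Genes that overlap the members were looked at because strandedness is not given in the sources used here, and reads of overlapping genes on opposite strands then cannot be told apart. The Sco2 and Tymp genes overlap Ncaph2 on the opposite strand, and their joint row had 25.0 and 20.6 FPKM in DMSO-induced cells, against 40.2 and 44.0 FPKM in uninduced cells (log2 change of -0.86, adjusted p of 0.0365, limma). That direction was opposite to that of Ncaph2. Lcorl, which overlaps Ncapg on the opposite strand, had 10.4 and 6.04 FPKM in DMSO-induced cells, against 3.76 and 1.70 FPKM in uninduced cells (adjusted p of 0.0631, limma). The microRNA genes Mir15b and Mir16-2 inside Smc4 and the antisense gene Smc2os were listed at 0 in all 4 samples. Smc2os is not among the genes that overlap Smc2 in GENCODE M21. Tmc4-ps, which overlaps Smc2, and Gm28967, which overlaps Ncapd2, were not looked at. The Ncapg row (chr5:45669887-45857615) and the Ncaph2 row (chr15:89355719-89377039) reach past the ends of those genes.

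The order of the levels had 1 fixed place: Ncaph2 was the highest of the 7 subunits in all 4 samples. Ncapg2 and Ncapg followed it in both DMSO-induced samples and in uninduced replicate 1, while Ncaph stood second in uninduced replicate 2. The places below changed from sample to sample, and the ranges of Smc2, Smc4, Ncaph and Ncapd3 overlapped. Ncaph2 had 4.20 and 4.69 times the FPKM of Ncaph in DMSO-induced cells, against 2.89 and 3.94 times in uninduced cells. Their transcripts differ in GC content (55.7% in Ncaph2 and 48.3% in Ncaph), and its part in the order of levels was not tested. Ncapg2 and Ncapg were close to each other, with a ratio of Ncapg2 to Ncapg of 1.03 and 0.956 in DMSO-induced cells and 1.10 and 1.01 in uninduced cells. The ratio of Smc4 to Smc2 was 1.30 and 1.87 in DMSO-induced cells, against 0.935 and 1.05 in uninduced cells. Each DMSO-induced sample thus lay above each uninduced one. The ratios of Ncapg to Ncaph, of Ncapd3 to Ncapg2 and of Ncapg2 to Ncaph2 overlapped between the groups. How often a ratio of any 2 genes separates the groups in this way was not tested.

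The balance of the complexes depended on the shared row. Summed FPKM of the 3 condensin II genes over that of the 3 condensin I genes gave a log2 difference of -1.54 between DMSO-induced and uninduced cells, but the Ncapd2 row made up nearly all of the condensin I sum. Leaving out uninduced replicate 1 made that difference -0.66, and leaving out uninduced replicate 2 made it -2.42. With Ncapg2 and Ncaph2 set over Ncapg and Ncaph only, the ratio was 2.10 and 2.68 in DMSO-induced cells, against 1.79 and 2.56 in uninduced cells, a log2 difference of 0.15. The samples interleaved in that ratio. These ratios are descriptions with no test.

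**Figure D3:**
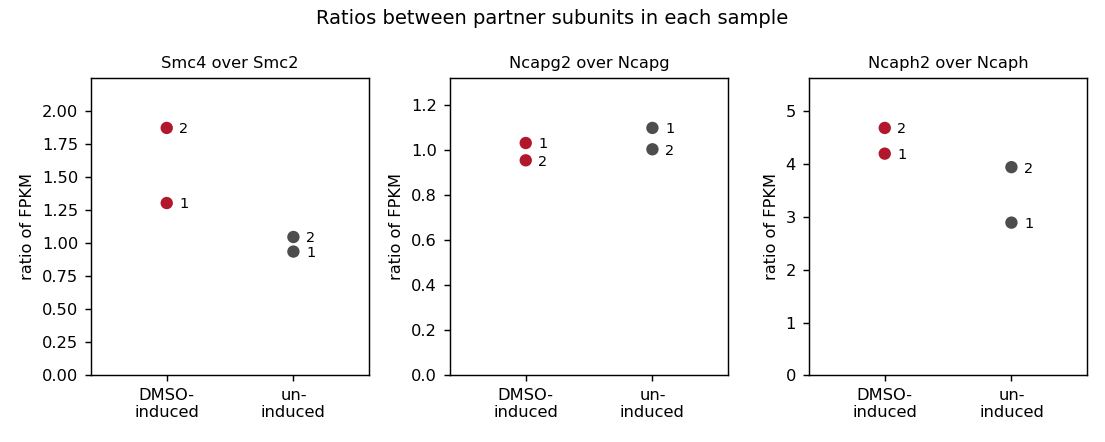
Ratios of FPKM between condensin subunits of the same role in each DMSO-induced and uninduced sample (linear axis from 0); a point is 1 sample, marked with its replicate number. Ncaph2 over Ncaph and Smc4 over Smc2 are higher in both DMSO-induced samples than in either uninduced one, and Ncapg2 over Ncapg stays near 1 in all 4 samples.

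The samples of a group were not equally close for all subunits. Replicate 1 exceeded replicate 2 in both groups for 6 of the 7 subunits with their own row, against 31.6% of all loci tested. The log2 difference of replicate 1 minus replicate 2 was 1.41 in DMSO-induced and 1.45 in uninduced cells for Smc2, and 0.95 in DMSO-induced and 1.31 in uninduced cells for Smc4. For Ncapg2 it was 0.90 in DMSO-induced and 1.15 in uninduced cells, and for Ncapg 0.79 in DMSO-induced and 1.02 in uninduced cells. It was small for Ncapd3 (0.18 in DMSO-induced and 0.37 in uninduced cells) and Ncaph (0.05 in DMSO-induced and 0.22 in uninduced cells), and Ncaph2 went the other way (-0.10 in DMSO-induced and -0.21 in uninduced cells). The 4 subunits with the widest spread have transcripts of low GC content, 39.7% in Smc2, 40.2% in Smc4, 39.8% in Ncapg and 44.3% in Ncapg2, against 46.8% in Ncapd3, 48.3% in Ncaph and 55.7% in Ncaph2. The 9819 tested protein-coding loci were split by GC content into 5 equal bins. In the lowest (33.1% to 44.5%), the median of replicate 1 minus replicate 2 was 0.18 in DMSO-induced and 0.45 in uninduced cells. The median change between the groups was 0.38 there. In the highest bin (56.1% to 76.3%) the median difference of the replicates was -0.11 in DMSO-induced and -0.05 in uninduced cells, and the median change between the groups was -0.12. Transcript GC content thus moved with the signed difference between replicates and with the difference between groups across the tested protein-coding loci. The part of GC content in the condensin values was not tested.

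**Figure D4:**
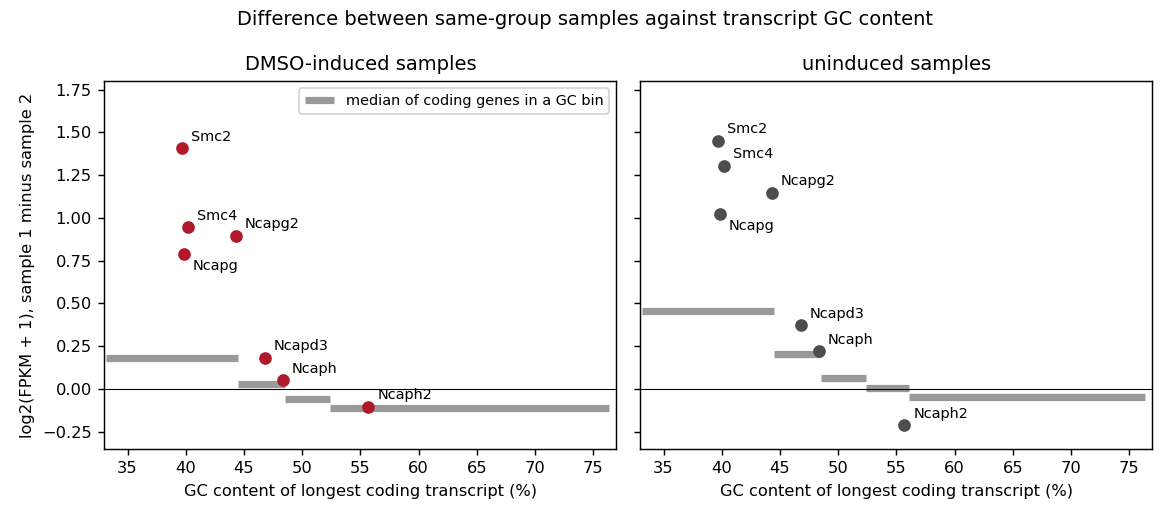
Difference of replicate 1 minus replicate 2 (sample 1 minus sample 2 on the axis) in log2(FPKM + 1) against transcript GC content (percent). Points are the 7 condensin subunits with their own row, and grey bars are medians of the tested protein-coding loci in 5 GC bins. DMSO-induced samples are in the left panel and uninduced samples in the right panel. Smc2, Smc4, Ncapg and Ncapg2 stand highest at low GC content, and Ncaph2 lies below 0 in both panels.

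The genes whose profile over the 4 samples lay closest to the mean profile of Smc2 and Smc4 were Vps13a, Dek, Idi1, Cenpe and Ttk, by Euclidean distance between centred log2(FPKM + 1) values among 6712 eligible genes. Dek, a chromatin protein gene, had 96.4 and 39.1 FPKM in DMSO-induced cells, against 64.8 and 24.5 FPKM in uninduced cells, at a distance of 0.16. Vps13a, a lipid transfer protein gene, had 10.2 and 4.60 FPKM in DMSO-induced cells, against 6.37 and 1.93 FPKM in uninduced cells, at a distance of 0.13. In all 5, replicate 1 exceeded replicate 2 in both groups, which the choice by nearness to Smc2 and Smc4 required. Cenpe, a kinetochore motor gene, had 9.02 and 4.84 FPKM in DMSO-induced cells, against 5.48 and 1.64 FPKM in uninduced cells. The checkpoint kinase gene Ttk had 14.1 and 5.64 FPKM in DMSO-induced cells, against 8.22 and 3.68 FPKM in uninduced cells, and the isoprenoid enzyme gene Idi1 had 14.2 and 7.69 FPKM in DMSO-induced cells, against 9.20 and 3.56 FPKM in uninduced cells. Of the other members, Ncapg2 (distance 0.41) and Ncapg (0.44) lay closest to that profile and Ncaph2 (1.45) farthest among those with their own row. Over 4 samples, this likeness is a description only.

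Genes that act on condensin or beside it in mitosis were set against the subunits. Of 24 condensin regulators and partners, 19 were tested, and 0 were called by limma (3 at an unadjusted p under 0.05), against 26.2% of all loci called and 43.1% at that unadjusted p; their median log2 change was -0.04. With the replicate block as an alternative, 4 of the 19 regulators and partners passed, against 4238 of all 12890 loci. The most abundant was Cdk1, the kinase that activates condensin at mitotic entry, with 166 and 138 FPKM in DMSO-induced cells and 166 and 146 FPKM in uninduced cells. The chromokinesin gene Kif4, whose protein works with condensin on chromosome arms, had 54.1 and 34.4 FPKM in DMSO-induced cells, against 29.0 and 16.7 FPKM in uninduced cells (log2 change 0.94 ± 0.36, adjusted p of 0.110, limma). Mcph1, which restrains condensin II in interphase, had 10.5 and 9.55 FPKM in DMSO-induced cells, against 11.3 and 7.67 FPKM in uninduced cells, with overlapping groups. Kif4 and Mcph1 were picked from the list after their values were seen, for their direct link to condensin. Like Kif4, Plk1 and Csnk2b had an unadjusted p under 0.05 in limma. Both were lower in DMSO-induced cells, with log2 changes of -0.59 for Plk1 and -0.65 for Csnk2b. For 7 of the 19 genes both DMSO-induced samples lay below both uninduced samples, against 34.7% of all loci. For 3 of the 19 they lay above both, against 36.1% of all loci.

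The other complexes built on SMC proteins also gave 0 calls in limma, against 26.2% of all loci. Of cohesin, the ring that holds sister chromatids together, and of factors that act on it, all 11 listed genes were tested. Among these, 4 had an unadjusted p under 0.05 in limma, against 43.1% of all loci, and the median log2 change was 0.31. Of SMC5/6, which acts in DNA repair, 6 were tested (0 at an unadjusted p under 0.05), with a median of -0.03. Smc1a, the most abundant cohesin gene, had 66.2 and 41.2 FPKM in DMSO-induced cells and 61.0 and 43.0 FPKM in uninduced cells. Nsmce4a, the most abundant SMC5/6 gene, had 63.4 and 57.9 FPKM in DMSO-induced cells and 79.3 and 58.6 FPKM in uninduced cells. With the replicate block 3 of these 17 genes passed, against 4238 of all 12890 loci.

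Genes of DNA replication and of mitosis, whose levels move with proliferation, were also counted. Of 17 DNA replication genes tested, 4 were lower in DMSO-induced cells and 0 higher, against 14.7% and 11.5% of all loci, and the median log2 change was -0.72. The 4 were Mcm2, Mcm3 and Mcm5, subunits of the replicative helicase, and Rfc3, a subunit of the clamp loader. Mcm2 fell to 41.0 and 32.6 FPKM in DMSO-induced cells, against 102 and 94.2 FPKM in uninduced cells (log2 change -1.40 ± 0.21, adjusted p of 0.0166, limma). Pcna, the sliding clamp and the most abundant of them, had 203 and 148 FPKM in DMSO-induced cells and 275 and 174 FPKM in uninduced cells, with overlapping groups. Of 23 mitosis genes tested, 3 were higher and 0 lower, against 11.5% higher and 14.7% lower of all loci, so the share called higher was near that of all loci; the median was 0.37, and 16 of the 23 had a higher mean in DMSO-induced cells. The 3 were Cdc25b and Cdc25c, phosphatases that activate CDK1, and Nusap1, a spindle protein gene. Cdc25b rose to 36.5 and 51.1 FPKM in DMSO-induced cells, against 8.67 and 8.54 FPKM in uninduced cells (log2 change 2.20 ± 0.23, adjusted p of 0.0126, limma). Leaving out any 1 sample, with the tested loci kept, left 0 of the replication genes and 0 or 1 of the mitosis genes called, with 14 to 486 calls over all loci. With the filter applied again to the 3 samples left, 0 to 5 replication genes and 0 to 7 mitosis genes were called, with 187 to 2685 calls over all loci; the 0 in both lists came without DMSO-induced replicate 2, the 7 without uninduced replicate 1 and the 5 without uninduced replicate 2. Replicate 1 exceeded replicate 2 in both groups for 16 of the 17 replication genes and for 19 of the 23 mitosis genes.

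Of 17 tested genes linked to the condensation and loss of the erythroblast nucleus, 2 were higher in DMSO-induced cells, H1f0 and Hdac6, and 4 were lower, Vim, Kat2a, Lmnb1 and Myc, against 11.5% higher and 14.7% lower of all loci. The median log2 change was -0.33. H1f0, a linker histone gene of differentiated cells, rose to 460 and 619 FPKM in DMSO-induced cells, against 59.1 and 123 FPKM in uninduced cells (log2 change 2.63 ± 0.40, adjusted p of 0.0177, limma). Vim, the intermediate filament gene that is shut off before enucleation in mammalian erythroblasts, fell to 12.3 and 12.6 FPKM in DMSO-induced cells, against 208 and 120 FPKM in uninduced cells (log2 change -3.57 ± 0.30, adjusted p of 0.0091, limma). The deacetylase gene Hdac6 had a log2 change of 0.97, the acetyltransferase gene Kat2a of -1.85, the lamin gene Lmnb1 of -1.46 and the transcription factor gene Myc of -1.41. With any 1 sample left out, 0 or 1 of the 17 passed the threshold when the tested loci were kept, and 1 to 6 did when the filter was applied again; the 1 in the second count came without DMSO-induced replicate 2.

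**Figure D5:**
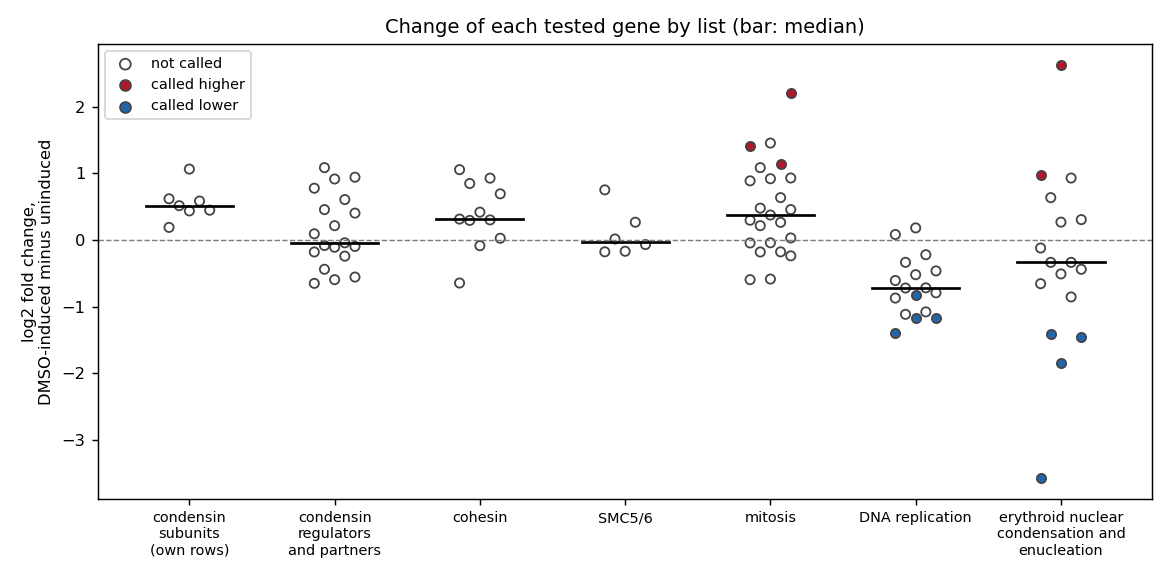
Log2 change (DMSO-induced minus uninduced) of every tested gene in the condensin set and in 6 lists of related genes; a point is 1 gene, filled where it was called, and the bar is the list's median. The medians run from -0.72 for DNA replication to 0.51 for the condensin subunits, none of whose points is filled.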

How the data were processed

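Total RNA from MEL cells was depleted of ribosomal RNA before library preparation, per the labels' protocols. TopHat2 and GRCm38 were used, per the submitters' processing notes; versions, the quantifier, strandedness and depth are not given in the sources used here. Each sample has 1 deposited FPKM column in a table of Cufflinks style, per the file headers; an exact 0 can be a failed estimate.

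From these values, log2(FPKM + 1) was fitted with limma 3.58.1 (R 4.3.3; trend, group only) over 12890 loci that reached 1 FPKM in 2 or more samples, called at a Benjamini-Hochberg adjusted p under 0.05. The fit was also run on simulated data with independent noise and few changed loci. That setting is unlike these data, so the run gives no support to the calls. Loci with several symbols were kept out of lists (Csnk2a1, Top2a, Akap8, Ppp1r10, Mcm7, Hist1h1c), as were genes with several rows (Rb1, Smchd1); Eid3, Cdt1 and Gins2 were not analysed here. Positions, transcript length and GC content came from GENCODE M21 and promoters from RefSeq.

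The members and lists were chosen with earlier results of these data known. Named genes were the members, each list's most abundant tested gene and its most changed called gene in each direction, 4 erythroid genes and the 5 nearest profiles; others complete small counts and were named after their values were seen. The planned ratio of the complexes is given, but the shared Ncapd2 row dominates it. Alternatives were 3 other scalings, other filters, a pseudocount of 0.1, a replicate block, a robust prior and leaving out each sample.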

Additional observations from a re-analysis of the deposited data

How the results depend on the processing

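Under the 3 other scalings and the pseudocount of 0.1, every member kept a positive log2 change, while the median over all loci, 0.03 as reported, ran from -0.04 to 0.11; the filters, the block and the robust prior cannot move a member's change. Leaving out 1 sample gave changes of -0.28 to 1.17 for Smc2 and -0.14 to 1.01 for Ncapg2 (Ncapg2 stood at -0.011 without DMSO-induced replicate 1, Smc2 at -0.26); the other 6 stayed positive. Members called, 0 as reported, were 2 under quantile normalization (the shared Ncapd2 row and Ncaph2), with 3511 of 12890 loci called. They were 1 (the shared Ncapd2 row) under scaling to sums that leave out globins and the top 10 loci, with 3049 of 12893 called. With the replicate block they were 2 (Smc4 and the shared Ncapd2 row), with 4238 of 12890 loci called. The log2 difference of the condensin II to condensin I ratio, -1.54 as reported, was -0.40 as a mean of logs and 0.15 without the HEAT-repeat subunits Ncapd2 and Ncapd3, an alternative chosen after seeing the data, and -2.42 to -0.66 with a sample left out.

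Without a filter 220 loci were called (87 higher, 133 lower), against 3377 (1478 higher, 1899 lower) as reported. With a sample left out the total ran from 14 to 486, with 0 to 180 higher and 14 to 306 lower. When the filter was also applied again, an alternative chosen after seeing the data, 860 loci (256 higher, 604 lower) were called without DMSO-induced replicate 1, 187 (39 and 148) without DMSO-induced replicate 2, 2685 (1358 and 1327) without uninduced replicate 1 and 2231 without uninduced replicate 2, of them 956 higher. The cause was not tested. For the regulators (0 called), quantile normalization gave 1 and the block 4; for the other SMC complexes (0 called), 1 and 3; for DNA replication (4 called), 2 and 9, with 1 under scaling to sums; for mitosis (3 called), 5 and 8. With a sample left out there were 0 replication, 0 to 1 mitosis and 0 to 1 nuclear condensation genes called, against 6 of the last as reported. With the filter applied again, the replication genes called were 2 without DMSO-induced replicate 1, 0 without DMSO-induced replicate 2, 1 without uninduced replicate 1 and 5 without uninduced replicate 2; the mitosis genes were 1, 0, 7 and 2 in that order, the nuclear condensation genes 4, 1, 5 and 6, and without uninduced replicate 1 there were 2 regulators and 3 genes of the other SMC complexes. Over all loci, the block called 4238 of 12890, quantile normalization 3511 of 12890 and scaling to sums 3049 of 12893. The labels do not say what a shared replicate number marks; the deviations of same-numbered samples correlated at 0.17 across loci, a hint from the data and not from the design, so the block is given as an alternative only. Read depth is unknown, so its share in the spread of the low rows cannot be given.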

Other observations

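Smchd1, which encodes an SMC-hinge protein outside the condensin, cohesin and SMC5/6 complexes, had 2 rows in the table. The row that joins 9 transcripts had 32.5 and 18.9 FPKM in DMSO-induced cells and 26.4 and 12.9 FPKM in uninduced cells, with overlapping groups (log2 change 0.41, adjusted p of 0.502, limma). The row of 1 single transcript had 4.03 and 4.87 FPKM in DMSO-induced cells, against 12.6 and 12.8 FPKM in uninduced cells (log2 change -1.33 ± 0.21, adjusted p of 0.018, limma). The transcript of the second row is also among those of the first. Both rows carry the same span, bases 70853767 to 71475870, and whether it reaches past the gene was not looked at. These rows were picked after their values were seen.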
